A study of Mus musculus with 5 samples.

Results

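The wild-type lung pool was set against the other mice of normal right ventricular pressure, 2 pools of transgenic mice, to ask how far the wild-type pool lay from the transgenic controls when no pressure difference was present. RNA of whole lung was hybridised to 1 array per pool, so the comparison rests on 3 of the 5 arrays of the series: 1 wild-type array and 2 transgenic arrays, chosen by their titles. Wild-type mice were fvb/n mice aged 8 weeks. The uninduced BMPR2delx4+ mice (SM22-tet-BMPR2delx4+, no dox) carried a doxycycline-inducible transgene for BMPR2delx4+, a dominant-negative form of the type II bone morphogenetic protein (BMP) receptor, and received no doxycycline. The SM22-rtTA mice carried the reverse tetracycline activator and received doxycycline. The SM22 promoter drives expression mainly in smooth muscle. The strain of the transgenic mice is not stated, and the 8 weeks in their titles may be an age or a time on treatment. Right ventricular pressure was 30 ± 3 mmHg in all 3 pools, with the kind of error and the number of animals not stated. The other 2 pools, at 50 ± 8 mmHg, are shown beside the values and entered no call: BMPR2delx4+ mice on doxycycline (the induced pool), and hypoxic fvb/n mice, 8 weeks old, kept in low oxygen for 4 weeks (the hypoxic pool).

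Intensities were scaled to a common median, and values under 276, the noise floor, were raised to it. A gene was called higher where wild type was above the floor and at least 2-fold above both transgenic pools, and lower where it was at least 2-fold below both and both were above the floor. There was 1 array per pool, so no test could be run, and the values describe these pools. Of 12393 genes on the array, 8110 were above the floor in at least 1 of the 3 pools and are called measured. Wild type was called higher in 569 genes (4.59% of the array) and lower in 95 (0.767%), a split of 85.7% higher. The split leaned less to the higher side under other scalings: 404 higher and 235 lower with the values as deposited (63.2% higher), and 437 and 187 with arrays set to the median of all probe sets (70% higher). At 1.5-fold, wild type was higher in 1211 genes (9.77%) and lower in 532 (4.29%). By any amount it lay above both transgenic pools in 3514 genes (28.4%) and below both in 3028 (24.4%).

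The distance of wild type from either transgenic pool was wider than the distance between the transgenic pools. Over the 6087 genes above the floor in all 3 pools, the log2 difference had an SD of 0.63 for wild type against the uninduced pool and 0.62 for wild type against SM22-rtTA. Between SM22-rtTA and the uninduced pool the SD was 0.34. Wild type and the uninduced pool lay at least 2-fold apart in 570 of these genes, wild type and SM22-rtTA in 580, and the transgenic pools themselves in 72. Lung markers were bright in all 3 pools. Surfactant protein C (Sftpc) was at 13368 in wild type, 11528 in the uninduced pool and 11160.4 in SM22-rtTA. The club cell secretoglobin Scgb1a1 was at 13194 in wild type, against 11200.5 in the uninduced pool and 11188 in the SM22-rtTA pool. Both genes lay at or near the highest scaled value of each array, 13552.2 in wild type, 11528.3 uninduced and 11188.3 in SM22-rtTA. Before scaling the highest values were 12354.4, 12078.3 and 12050.4 in the same order. The excess of these 2 genes in wild type therefore carries the scaling and is not read as a difference. Bmpr2 itself gave little signal, 357 in the SM22-rtTA pool and the floor in the other 4, so its probe set does not check the genotypes.

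**Figure D1:**
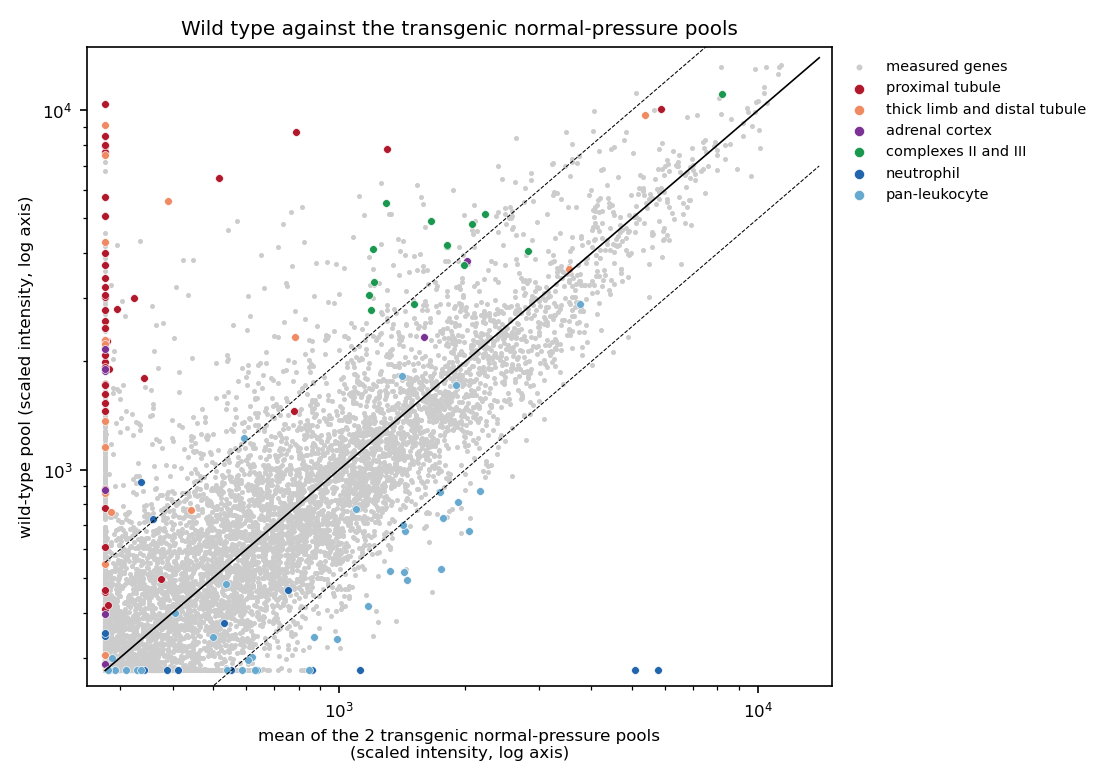
Scaled intensity of each of the 8110 measured genes in the wild-type pool (vertical, log axis) against the mean log2 of the 2 transgenic normal-pressure pools (horizontal, log axis), with equality as a solid line and 2-fold differences as dashed lines. Coloured points are the measured members of 6 gene lists. Most proximal tubule genes stand in a column at the floor of the horizontal axis, where 33 of the 45 shown were measured in wild type only. Genes of complexes II and III run along the upper dashed line, and the neutrophil genes S100a8 and S100a9 lie at the floor of the vertical axis far to the right.

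Many of the widest differences were genes of the kidney tubule. The proximal tubule reabsorbs most of the filtered glucose, phosphate, amino acids and protein, makes glucose, and secretes organic acids and drugs. The thick ascending limb and distal tubule reabsorb salt behind it. Both segments are packed with mitochondria and peroxisomes, and their transport proteins serve as markers because few other cells make them. Of 51 proximal tubule genes on the array, wild type was called higher in 38 and lower in 0, where 4.59% of the array was called higher. Of the 45 that were measured, 33 were above the floor in wild type and at it in both transgenic pools, so the fold of those genes is a lower bound. The median log2 ratio over all 51 was 2.85, against 0.00 over all genes on the array, and the summed intensity was 155202 in wild type, against 22900.0 in the uninduced pool and 21684 in the SM22-rtTA pool. In pooled RNA of an organ, more cells of a type and more RNA per cell cannot be told apart. Whether the wild-type pool also held RNA of kidney or adrenal tissue taken with the lung was not tested. Within the 3 arrays compared, 1 per pool, tissue of another organ, strain and genotype cannot be told apart. The hypoxic pool, also of fvb/n mice, had a summed intensity of 24819 for the proximal tubule list.

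Among the enzymes, Miox, which opens the ring of myo-inositol in the kidney, was at 10418 in wild type and at the floor in both transgenic pools, at least 37.7-fold higher. Acsm2, a medium-chain acyl-CoA synthetase of kidney mitochondria, was at 8497 in wild type, against the floor in both transgenic pools. Fbp1, the fructose bisphosphatase of gluconeogenesis, was at 7648 in wild type and at the floor in both transgenic pools. All 3 enzymes were at the floor in the induced and hypoxic pools too. Among membrane carriers, the phosphate transporter Slc34a1 stood at 7945 and the fatty acid carrier Slc27a2 at 7998 in wild type, both at the floor in both transgenic pools. The glucose carrier Slc5a2 was at 1925 in wild type, against the floor in both transgenic pools. Slc3a1 and Slc7a9, the subunits of the cystine carrier, were at 3022 and 1728 in wild type and at the floor in both transgenic pools. The endocytic receptors for filtered protein, megalin (Lrp2, 1908 in wild type, against 289 uninduced and the floor in SM22-rtTA) and cubilin (Cubn, 1991 in wild type, the floor in both transgenic pools), were above the floor together in wild type, and Amn, the membrane anchor of cubilin, was at 1975 in wild type and at the floor in both transgenic pools.

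Some members were also measured in the transgenic lungs and so have a ratio instead of a bound. Kap, the kidney androgen-regulated protein, was at 6472 in wild type, against 554 in the uninduced pool and 483 in the SM22-rtTA pool, 11.7-fold above the nearer pool. Cyp2e1, which oxidises ethanol and small solvents, was at 8690.4 in wild type, 1238 in the uninduced pool and 502 in SM22-rtTA, a 7.02-fold difference. The dipeptidase Cndp2 was at 7808 in wild type, against 1353 in the uninduced pool and 1245 in the SM22-rtTA pool. Cyp4b1, a cytochrome that lung also makes in quantity, was at 10064 in wild type, 6087 in the uninduced pool and 5652 in SM22-rtTA, and was not called. The members with the smallest differences were Mep1b, a brush-border protease, at 497 in wild type, against 352 uninduced and 398 in SM22-rtTA, and the organic anion carrier Slc22a6, at 409.5 in wild type, the floor in both transgenic pools. The 6 other members were at the floor in all 3 pools, Cyp2j5, Cyp24a1, Cyp27b1, Slc13a3, Bhmt and Rgn.

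Carriers of organic anions and cations, a list that shares members with the proximal tubule, were called higher in 9 of 17 and lower in 0. Slc47a1, which passes organic cations into the urine, was at 2952 in wild type, against the floor in both transgenic pools, at least 10.7-fold higher. Its basolateral partner Slc22a2 was at 1457 in wild type and at the floor in both transgenic pools, and the anion carrier Slc22a8 was at 2282 in wild type, against 281 in the uninduced pool and the floor in the SM22-rtTA pool. Slc22a18 was at 4322 in wild type, 355 in the uninduced pool and 314 in SM22-rtTA, and the urate transporter Slc22a12 was at 1799.7 in wild type, against 352 uninduced and 332 in SM22-rtTA. The prostaglandin transporter Slco2a1, which lung endothelium uses, ran the other way at 1998 in wild type, against 3124 uninduced and 3308 in SM22-rtTA.

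Thick limb and distal tubule genes were high in the same pool. Of 24 on the array, wild type was called higher in 12 and lower in 0, with a median log2 ratio of 1.20 and 12 measured in wild type only. Klk1, tissue kallikrein, was at 9103 in wild type, against the floor in both transgenic pools, and uromodulin (Umod), the main protein of normal urine, was at 7501 in wild type and at the floor in both transgenic pools. Epidermal growth factor (Egf) was at 4302 in wild type, against the floor in both transgenic pools. The bounds on the fold were, for Klk1, Umod and Egf, at least 33.0-fold, at least 27.1-fold and at least 15.6-fold. The loop diuretic-sensitive cotransporter Slc12a1 was at 2295 and the thiazide-sensitive Slc12a3 at 1362, and the calcium buffer Calb1 at 2189.8, all at the floor in both transgenic pools. Fxyd2, the gamma subunit of the sodium pump, was at 5578 in wild type, 487 in the uninduced pool and 313 in SM22-rtTA, while the pump's beta subunit Atp1b1, which all epithelia use, was at 9679 in wild type, against 6498 in the uninduced pool and 4443 in the SM22-rtTA pool, and was not called. Klk1, like Ugt2b38 and Acsm2 named elsewhere, belongs to a family of near copies whose transcripts its probes may also take up. Cldn16, Cldn19, Trpm6, Ptger3, Ptgds and Esrrb were at the floor in all 3 pools.

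The collecting duct and the glomerulus differed from the tubule in their counts. Of 16 collecting duct genes, 3 were called higher and 1 lower, with a median log2 ratio of 0.00. This median depends on the floor. It was 0.44 with the floor at the 30th percentile. With 50 added to each intensity in place of the floor it was 0.94, against 0.11 over all genes. The water channels Aqp2 (1307 in wild type, against 353 uninduced and the floor in SM22-rtTA) and Aqp3 (847 in wild type, the floor in both transgenic pools) and the cortisol-inactivating enzyme Hsd11b2 (1138 in wild type, the floor in both transgenic pools) were the higher members. Scnn1b and Scnn1g, subunits of the epithelial sodium channel that also clears fluid from airspaces, were lower in wild type without reaching the 2-fold call. Scnn1b was at 712 in wild type, 1506 in the uninduced pool and 1142 in SM22-rtTA, and Scnn1g was at 931 in wild type, against 1615 in the uninduced pool and 1527 in the SM22-rtTA pool. Of 10 glomerular and juxtaglomerular genes, 0 were called higher, 1 was called lower and 6 lay below both transgenic pools. Nephrin (Nphs1), Wt1 and Ptpro, which mark podocytes, were at the floor in all 3 pools. Podxl and Tcf21, shared by podocytes and lung, were lower in wild type: Podxl was at 2306 in wild type, 3436 in the uninduced pool and 3117 in SM22-rtTA, and Tcf21 was at 1553 in wild type, against 2254 in the uninduced pool and 2142 in the SM22-rtTA pool. Taking the 4 kidney lists as 101 genes, wild type was called higher in 53 and lower in 2, and these 53 made up 9.3% of all genes called higher.

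**Figure D2:**
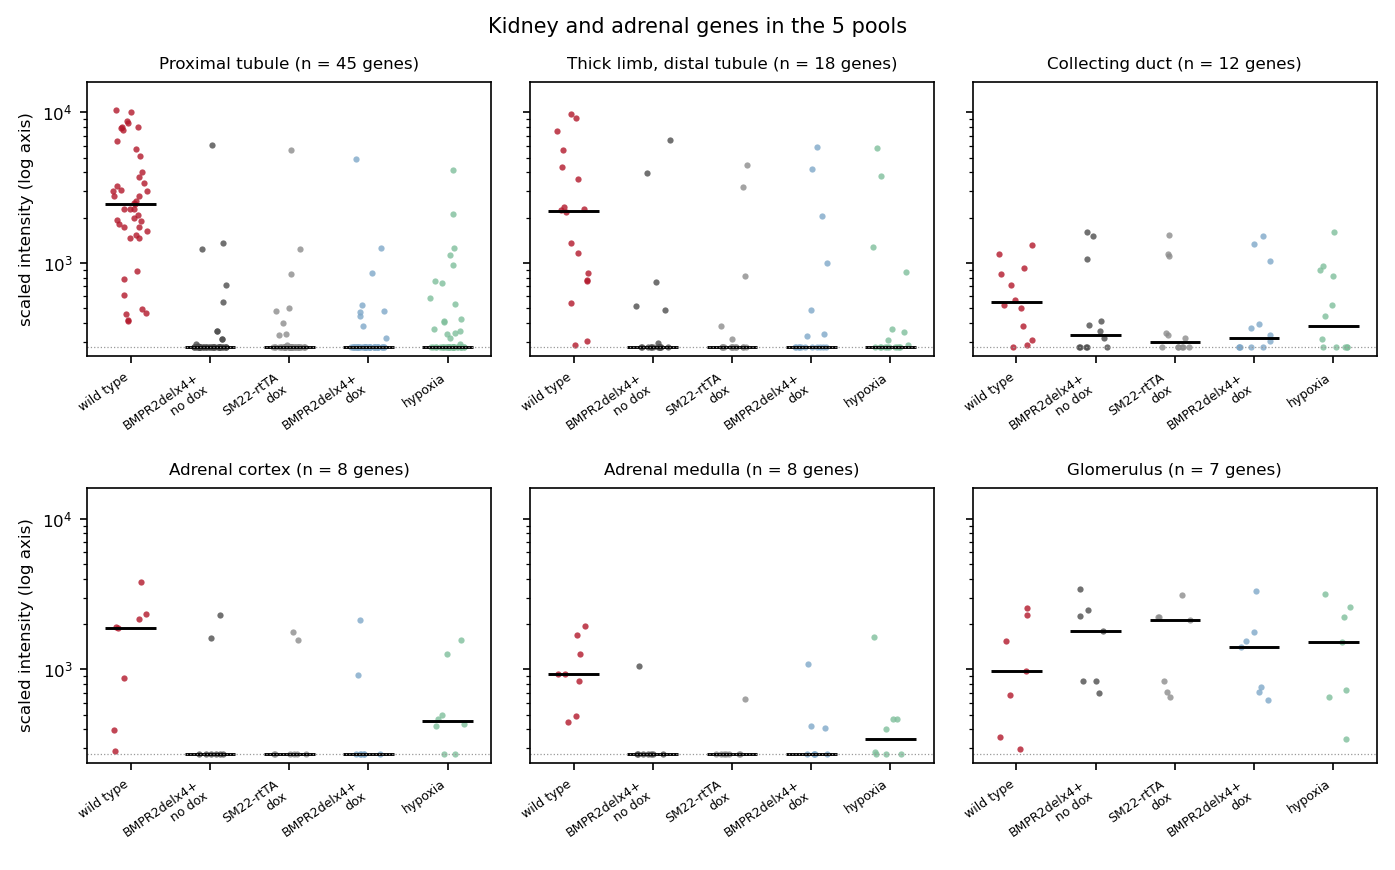
Scaled intensity (log axis) of the measured members of 4 kidney lists and 2 adrenal lists, 1 point per gene, in the wild-type pool at the left, the 2 transgenic normal-pressure pools, the induced pool and the hypoxic pool, with the median of the measured members as a bar and the floor as a dotted line. The proximal tubule, thick limb and adrenal panels are spread over the axis in wild type and lie mostly on the floor in both transgenic pools. This form is partly set by the choice of measured members, since many were measured in wild type only. These were 33 of 45 proximal tubule, 12 of 18 thick limb, 6 of 8 cortex and 7 of 8 medulla genes. Members at the floor in all 3 normal-pressure pools are not shown. The glomerular panel does not have this form.

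Genes outside the lists of the same segments were among those called, and were chosen after their values were seen. Cdh16, the kidney-specific cadherin, was at 4221 in wild type, the floor in the uninduced pool and 313 in SM22-rtTA. The deoxyribonuclease Dnase1, abundant in kidney, was at 7159 in wild type, against the floor in both transgenic pools, and Cltrn (collectrin), a chaperone for amino acid carriers of the brush border, was at 5136 in wild type and at the floor in both transgenic pools. The amino acid carrier Slc7a13 was at 3770.3 in wild type, against the floor in both transgenic pools. In all, 154 of the 569 genes called higher were at the floor in all other 4 pools, and 224 were at the floor in both transgenic pools. Of the 569, 188 were at least 4-fold and 59 at least 8-fold above the mean log2 of both transgenic pools. Wild type was also at least 2-fold above the hypoxic pool in 437 of them, above the induced pool in 405 and above both in 337.

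The promoters of the tubule genes are shown because these genes were high together and many tubule genes are known targets of HNF1 factors. Hnf4a, another factor of proximal tubule, was at 944 in wild type, 442 in the uninduced pool and 677 in SM22-rtTA, and Nr1h4 was at 659.7 in wild type, against the floor in both transgenic pools. The motif GTTAATNATTAAC, 13 bases that both strands were searched for with at most 2 mismatches, was chosen after the kidney genes were seen. Promoters ran from 250 bases before to 50 bases after the start of a gene, from RefSeq on GRCm38.p6. A match stood in a promoter of 8 of 33 proximal tubule genes called higher (24.2%, with 5 of the 38 genes not in the promoter table). It stood in 3 of 9 of the thick limb and distal tubule genes called higher (33.3%), in 30 of 451 of all genes called higher (6.65%) and in 2 of 78 of genes called lower (2.56%). Among all 27025 genes with a promoter in the table, 427 had a match (1.58%), and among the measured genes 92 of 6559 (1.4%). A gene with several promoters was counted once and had a match if any of them held one. A match describes the letters in the window and is not evidence that a factor binds there. The promoters of Umod at chr7:119479213-119479512 (reverse strand), Slc12a1 at chr2:125152350-125152649 (forward strand), Slc17a1, a phosphate and urate carrier, at chr13:23870023-23870322 (forward strand), and Sult1d1, a sulfotransferase, at chr5:87568957-87569256 (reverse strand), are printed 5′ to 3′ with the match in capitals. That of Sult1d1 has 1 mismatch and the others have 2.
Umod: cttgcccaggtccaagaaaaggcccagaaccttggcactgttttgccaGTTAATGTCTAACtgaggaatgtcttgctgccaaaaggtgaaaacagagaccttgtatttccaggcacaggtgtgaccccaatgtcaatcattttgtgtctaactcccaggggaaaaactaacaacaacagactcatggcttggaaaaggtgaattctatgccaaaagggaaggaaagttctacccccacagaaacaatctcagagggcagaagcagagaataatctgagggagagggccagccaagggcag
Slc12a1: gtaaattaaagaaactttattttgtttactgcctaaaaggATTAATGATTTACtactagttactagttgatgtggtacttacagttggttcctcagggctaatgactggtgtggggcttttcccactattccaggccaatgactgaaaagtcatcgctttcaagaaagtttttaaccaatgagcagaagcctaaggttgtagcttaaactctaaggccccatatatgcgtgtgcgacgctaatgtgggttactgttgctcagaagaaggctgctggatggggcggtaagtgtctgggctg
Slc17a1: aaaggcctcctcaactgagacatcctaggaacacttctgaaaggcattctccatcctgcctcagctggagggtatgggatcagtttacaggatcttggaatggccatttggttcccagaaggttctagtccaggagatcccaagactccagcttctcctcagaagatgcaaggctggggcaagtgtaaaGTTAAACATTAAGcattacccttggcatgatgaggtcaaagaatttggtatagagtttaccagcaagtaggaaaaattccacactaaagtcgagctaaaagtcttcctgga
Sult1d1: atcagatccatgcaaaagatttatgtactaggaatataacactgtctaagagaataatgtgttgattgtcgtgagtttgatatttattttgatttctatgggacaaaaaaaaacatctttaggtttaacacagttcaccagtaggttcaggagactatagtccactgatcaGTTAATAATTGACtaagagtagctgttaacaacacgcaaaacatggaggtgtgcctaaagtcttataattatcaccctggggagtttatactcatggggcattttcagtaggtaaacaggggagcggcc

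The match centre lay 196 bases before the start of Umod, 204 before that of Slc12a1, 55 before that of Slc17a1 and 73 before that of Sult1d1. Slc17a1 was at 2285 in wild type and at the floor in both transgenic pools, and Sult1d1 was at 2794 in wild type, against 314 in the uninduced pool and the floor in the SM22-rtTA pool.

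Adrenal genes were high in the same pool. The adrenal gland sits on the kidney, its cortex making steroids and its medulla catecholamines. Of 12 cortex genes on the array, wild type was called higher in 4 and lower in 0, with a median log2 ratio of 0.54. Star, which brings cholesterol into the mitochondrion, was at 2165 in wild type and at the floor in both transgenic pools, and the steroid dehydrogenase Hsd3b1 was at 1909.9 in wild type, against the floor in both transgenic pools. Cyp21a1, the steroid hydroxylase of the gland, was at 1883 in wild type and at the floor in both transgenic pools, and was at 499.8 in the hypoxic pool. Cyp11a1, which cuts the cholesterol side chain, was at 875 in wild type, against the floor in both transgenic pools. Of 11 medullary genes, 5 were called higher and 0 lower, with a median of 1.05. The granins Chgb and Chga were at 1951 and 1257 in wild type and at the floor in both transgenic pools, as were the vesicular monoamine transporter Slc18a1 at 932 and neuropeptide Npy at 836. Th and Dbh, the enzymes of catecholamine synthesis, were just over the floor at 490.3 and 449 in wild type. Cyp11b2, which makes aldosterone, and the corticotropin receptor Mc2r were at the floor in all 3 pools.

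Against the 4.59% of the array called higher, the share called higher lay above it for genes of liver. Exocrine pancreas, squamous epithelium, stomach and intestine, skeletal muscle and heart had 1 or 2 calls each. Those counts are too small to set the lists apart from the array or from each other. Of 25 liver genes, 4 were called higher and 0 lower, with a median of 0.00. The liver median was 0.77 with the floor at the 30th percentile, and 1.15 with 50 added to each intensity in place of the floor. Albumin (Alb) was at 2894 in wild type and at the floor in both transgenic pools, at least 10.5-fold higher, and apolipoprotein Apoa1 was at 1245 in wild type, against the floor in the uninduced pool and 376 in the SM22-rtTA pool. Other defining liver genes, among them Apob, the fibrinogen chains Fgb and Fgg, Ahsg, Cps1 and Cyp1a2, were at the floor in all 3 pools. Of 12 exocrine pancreas genes, 2 were called higher, Cela1 (1385 in wild type, the floor in both transgenic pools) and Prss2 (2158 in wild type, against 938 uninduced and 790.0 in SM22-rtTA). Of 17 stomach and intestine genes 1 was called higher, the brush-border protein Vil1 (887 in wild type, the floor in both transgenic pools), which proximal tubule also makes. Of 21 skeletal muscle genes 1 was called higher, Pvalb (764 in wild type, against 293 uninduced and the floor in SM22-rtTA), which is also a gene of the distal tubule, and of 27 heart genes 1, the natriuretic peptide Nppa (561 in wild type, the floor in both transgenic pools). Of 21 squamous epithelium genes, 2 were called higher, Krt14 (615 in wild type, against 296 uninduced and the floor in SM22-rtTA) and Perp (639.9 in wild type, against 313 uninduced and 286 in SM22-rtTA). Over 14 lists of tissues other than lung, kidney, adrenal and fat included, with 284 genes, wild type was called higher in 83 (14.6% of all genes called higher) and lower in 2. With the listed genes of kidney, adrenal gland, liver, fat, muscle and squamous epithelium left out, 489 genes were still called higher and 93 lower.

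Many fat genes were higher in wild type than in both transgenic pools, and some of them were high in the induced pool too. Of 25 white fat and lipid storage genes, 7 were called higher and 0 lower, with a median log2 ratio of 0.72. Of 15 brown fat genes, 5 were called higher and 0 lower, with a median of 0.29. Fabp4, the fatty acid carrier of fat cells, was at 6267 in wild type, 1091 in the uninduced pool and 1457 in SM22-rtTA, and Adipoq, the fat cell hormone adiponectin, was at 1957 in wild type, against 453 in the uninduced pool and 811 in the SM22-rtTA pool. Dgat2, which makes triglyceride, was at 3694 in wild type, 702 in the uninduced pool and 850.5 in SM22-rtTA. Ucp1, the uncoupler of brown fat, was at 797 in wild type, against the floor in both transgenic pools, and at 1600.4 in the induced pool and the floor in the hypoxic pool. Cidea, a lipid droplet protein, was at 1259 in wild type and at the floor in both transgenic pools, and at 1582 in the induced pool and the floor in the hypoxic pool. Cox8b and Cox7a1, forms of cytochrome oxidase subunits found in brown fat and muscle, were higher too. Cox8b was at 1485 in wild type, against 389 in the uninduced pool and 331 in the SM22-rtTA pool, and at 2936 in the induced pool and 377 in the hypoxic pool. Cox7a1 was at 943 in wild type, 342 in the uninduced pool and 303 in SM22-rtTA, and at 1925 in the induced pool and 308 in the hypoxic pool. For Ucp1, Cidea, Cox8b and Cox7a1 the induced pool was above wild type, while the hypoxic pool was at or near the levels of the transgenic pools. Summed over the brown fat list, intensity was 9196 in wild type, 13164 in the induced pool and 4723 in the hypoxic pool, against 4790.0 in the uninduced pool and 4724 in SM22-rtTA. Leptin, resistin (Retn) and Cidec were at 396, 454 and 533 in wild type and at the floor in both transgenic pools, and none was called.

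Nuclear genes of the mitochondrial respiratory chain were higher in wild type as a group, with a smaller ratio than the kidney genes. The chain passes electrons from complex I and complex II through complex III and cytochrome c to complex IV, and ATP synthase uses the proton gradient this builds. Of 33 complex I genes, wild type was called higher in 12 and lower in 0, and 32 lay above both transgenic pools, with a median log2 ratio of 0.94. Ndufa10 was at 2508 in wild type, against 894 in the uninduced pool and 871 in the SM22-rtTA pool, and Ndufs1, the large iron-sulfur subunit, was at 2101 in wild type, 848 in the uninduced pool and 809 in SM22-rtTA. Of 14 genes of complexes II and III with cytochrome c, 10 were called higher and all 14 lay above both pools, with a median of 1.22. Cytochrome c (Cycs) was at 5533 in wild type, against 1499 in the uninduced pool and 1119 in the SM22-rtTA pool, 3.69-fold above the nearer, and the Rieske protein Uqcrfs1 was at 4119 in wild type, 1140.3 in the uninduced pool and 1267 in SM22-rtTA. Of 14 complex IV genes, 4 were called higher with a median of 0.86, and of 15 ATP synthase genes 5, with a median of 0.99. The catalytic subunit Atp5b was at 9976 in wild type, against 3654 in the uninduced pool and 4486 in the SM22-rtTA pool. No gene of these lists was called lower.

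The median shift was of like size in all complexes, and the induced pool had part of it. Over the 75 measured genes of all complexes, 72 lay above both transgenic pools and 66 were highest in wild type of all 5 pools. Their median intensity was 3589.7 in wild type, 2685 in the induced pool and 1837 in the hypoxic pool, against 1954 in the uninduced pool and 1868 in SM22-rtTA. In the induced pool 74 of the 75 also lay above both transgenic pools. Its summed proximal tubule intensity was 21214, against 22900.0 in the uninduced pool and 21684 in SM22-rtTA. Its sum over skeletal muscle genes was 86842, against 9663 in the uninduced pool and 8586 in SM22-rtTA. Over heart and slow muscle genes it was 69988, against 20895 uninduced and 20908 in SM22-rtTA. The part of muscle and fat transcripts in the mitochondrial genes of the induced pool was not tested. The part of the kidney and fat transcripts in the height of the mitochondrial genes in wild type was not tested. Cytosolic ribosomal protein genes, bright in every cell, did not share the shift: of 29, 0 were called higher and 0 lower, with a median of 0.03, which was -0.19 with the values as deposited. Of 30 proteasome genes 0 were called higher and 0 lower, with a median of 0.10, or -0.12 as deposited.

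**Figure D3:**
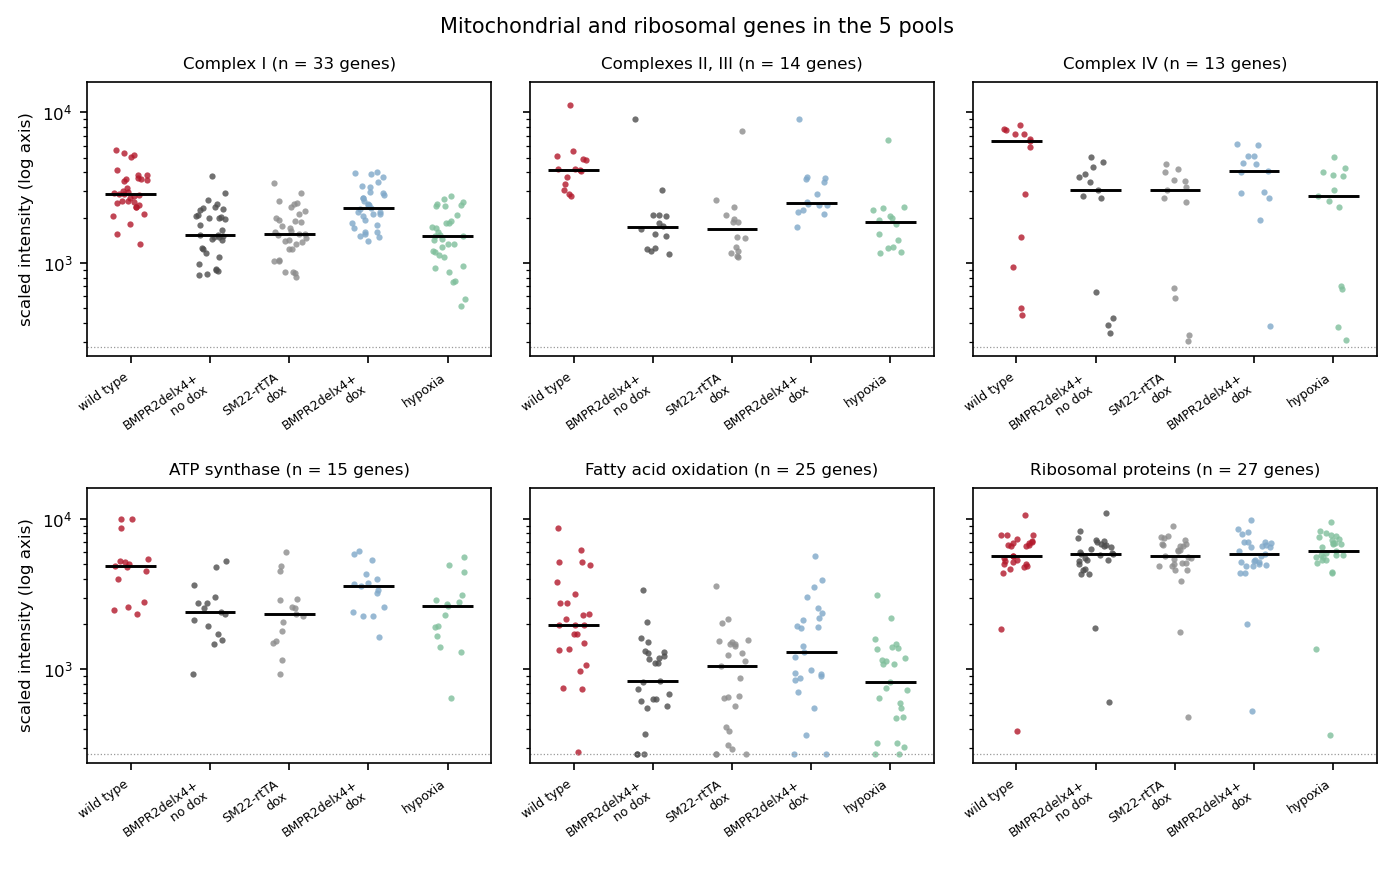
Scaled intensity (log axis) of the measured members of 4 respiratory chain lists, of mitochondrial fatty acid oxidation and of cytosolic ribosomal proteins, 1 point per gene, in the 5 pools with wild type at the left, the median as a bar and the floor as a dotted line. The medians of the respiratory chain panels are highest in wild type and next highest in the induced pool, and those of the ribosomal panel are level.

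Fuel pathways of the mitochondrion and peroxisome were higher in the same pool. Of 19 genes of the citric acid cycle and pyruvate dehydrogenase, 8 were called higher and all 19 lay above both transgenic pools, with a median of 1.01. Pyruvate carboxylase (Pcx), which feeds the cycle and gluconeogenesis, was at 3038 in wild type, 701 in the uninduced pool and 520.4 in SM22-rtTA. Of 25 fatty acid oxidation genes, 15 were called higher and 24 lay above both, with a median of 1.22. The medium-chain dehydrogenase Acadm was at 6176 in wild type, against 1512 in the uninduced pool and 1552 in the SM22-rtTA pool, and Oxct1, which lets tissues burn ketones, was at 5135 in wild type, 1109.5 in the uninduced pool and 1562 in SM22-rtTA. Of 22 peroxisome genes, 8 were called higher, with a median of 0.82. Those called included enzymes with a narrow tissue range, Hao2 (2774 in wild type, the floor in both transgenic pools), the amino acid oxidase Dao (2085 in wild type, the floor in both transgenic pools) and the reductase Pecr (3952 in wild type, the floor in both transgenic pools). Peroxisome genes of wider use were among those not called: the bifunctional enzyme Hsd17b4 was at 1224 in wild type, against 919 uninduced and 963 in SM22-rtTA, and the assembly factor Pex19 at 683 in wild type, against 436 uninduced and 579 in SM22-rtTA.

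Amino acid breakdown, sugar synthesis and conjugation also had many calls. Of 32 genes of amino acid and glycine metabolism, 18 were called higher, 0 lower, and 10 were measured in wild type only, with a median of 1.21. Gatm, which starts creatine synthesis, was at 3715 in wild type, against the floor in both transgenic pools, and Hgd, of tyrosine breakdown, was at 2222 in wild type and at the floor in both transgenic pools. Fah, the last enzyme of that path, was at 3208 in wild type, against 603 in the uninduced pool and 727 in the SM22-rtTA pool, and the valine enzyme Aldh6a1 was at 3740.1 in wild type, 1065 in the uninduced pool and 908 in SM22-rtTA. A list of gluconeogenesis and fructose genes, written after the values were seen, had 11 of 15 called higher. Its members included G6pc, which releases glucose, at 2584 in wild type, against the floor in both transgenic pools, Pck1, at 1626 in wild type and at the floor in both transgenic pools, and ketohexokinase (Khk), at 2849 in wild type, against 377 in the uninduced pool and 338 in the SM22-rtTA pool. A list of conjugation and xenobiotic genes, also written after the values were seen, had 21 of 34 called higher. In it were the glucuronosyltransferase Ugt2b38, at 8365 in wild type and at the floor in both transgenic pools, the acylase Acy3, at 6768 in wild type, against the floor in both transgenic pools, and alcohol dehydrogenase Adh1, at 5789 in wild type, 1239.5 in the uninduced pool and 1000.0 in SM22-rtTA. Members of the same list that lung makes itself lay on both sides. Mgst1 (4210.3 in wild type, against 4972 uninduced and 4369 in SM22-rtTA) was not higher in wild type. Nor was Cyp2s1 (1034 in wild type, against 2076 uninduced and 1376 in SM22-rtTA). Cyp4b1, given above among the proximal tubule genes, is also in this list and lay above both transgenic pools without a call. Glycolysis was called higher in 4 of 17 genes, with the heart-form lactate dehydrogenase Ldhb at 5983 in wild type, against 1943 in the uninduced pool and 1800.3 in the SM22-rtTA pool.

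Stress and defence genes had scattered calls. Of 31 antioxidant and detoxification genes 5 were called higher, among them mitochondrial superoxide dismutase (Sod2, 3304 in wild type, against 1231 uninduced and 1262 in SM22-rtTA) and mitochondrial peroxiredoxin (Prdx3, 1578 in wild type, against 658 uninduced and 601 in SM22-rtTA). Of 35 heat shock and chaperone genes 2 were called higher, near the 4.59% of the array. The inducible Hspa1a was at 2671 in wild type, 641 in the uninduced pool and 582 in SM22-rtTA, and the mitochondrial Hspa9 was at 1993 in wild type, against 748 in the uninduced pool and 811 in the SM22-rtTA pool. The list's median was 0.20, or -0.02 with the values as deposited. Of 32 immediate early genes 0 were called higher and 1 lower, the cytokine feedback inhibitor Socs3 (the floor in wild type, against 648 uninduced and 637 in SM22-rtTA). Of 19 cholesterol synthesis genes 2 were called higher, Hmgcs1 (3914 in wild type, against 1177 uninduced and 1183 in SM22-rtTA) and Cyp51 (1172 in wild type, the floor in both transgenic pools). Of 33 proliferation genes, 17 clock genes and 11 antigen presentation genes, none was called in either direction. Of these, 22 proliferation genes, 4 clock genes and 1 antigen presentation gene were at the floor in all 3 pools and could not be called.

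The lower side was led by genes of leukocytes. S100a8 and S100a9 together form calprotectin, the main cytosolic protein of neutrophils. S100a8 was at the floor in wild type, 7119.5 in the uninduced pool and 4672 in SM22-rtTA, at least 16.9-fold lower than the nearer, and at 2174 in the induced pool and 1719.6 in the hypoxic pool. S100a9 was at the floor in wild type, against 6283 in the uninduced pool and 4095 in the SM22-rtTA pool, at least 14.8-fold lower, and at 1675 in the induced pool and 1020.0 in the hypoxic pool. These were the 2 genes called lower by at least 8-fold, and the transgenic pools held the highest levels of the 5. Of 17 neutrophil genes, wild type was called lower in 4 and higher in 1, with a median of -0.50, where 0.767% of the array was called lower. The cytokine Il1b was at the floor in wild type, 2126 in the uninduced pool and 594 in SM22-rtTA, and the granulocyte growth factor receptor Csf3r was at the floor in wild type, against 953 in the uninduced pool and 774 in the SM22-rtTA pool. Il1b also differed between the transgenic pools, so its distance is set by the SM22-rtTA value. Granule proteins lay on both sides. Lactoferrin (Ltf), which airway glands also secrete, was at 922 in wild type, 411 in the uninduced pool and the floor in SM22-rtTA, and was called higher. Ngp was at 730.4 in wild type, against 419.9 in the uninduced pool and 308 in the SM22-rtTA pool. Myeloperoxidase (Mpo) and neutrophil elastase (Elane) were at 344 and 352 in wild type and at the floor in both transgenic pools, short of a call. Lipocalin Lcn2 was at 463 in wild type, 899.7 in the uninduced pool and 634 in SM22-rtTA, and gelatinase Mmp9 was at the floor in wild type, against 459 in the uninduced pool and 370.0 in the SM22-rtTA pool, both short of a call. The collagenase Mmp8 was at the floor in wild type, 545 in the uninduced pool and the floor in SM22-rtTA. Camp and Prtn3 were at the floor in all 3 pools. The summed intensity of the list was 6225 in wild type, against 23025 in the uninduced pool and 14696 in SM22-rtTA.

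Genes used by most leukocytes were lower with them. Of 42 such genes, a list written after the values were seen, wild type was called lower in 13 and higher in 0, and 26 lay below both pools, with a median of -0.76. Over the array, 0.767% of genes were called lower and 24.4% lay below both. The adaptor Tyrobp was at 529 in wild type, against 1664 in the uninduced pool and 1841 in the SM22-rtTA pool, and the actin regulator Coro1a was at 677 in wild type, 1762 in the uninduced pool and 2354 in SM22-rtTA. Ptprc, the common leukocyte antigen, was at 874 in wild type, against 1928 in the uninduced pool and 2433 in the SM22-rtTA pool. Alox5ap, needed for leukotriene synthesis, was at 493 in wild type, 1531 in the uninduced pool and 1373 in SM22-rtTA, and the fungal receptor Clec7a was at 379 in wild type, against 1331 in the uninduced pool and 1409.9 in the SM22-rtTA pool. Not all members were low. The integrin chain Itgb2 was at 1717 in wild type, 1662 in the uninduced pool and 2170.2 in SM22-rtTA, the phosphatase Ptpn6 was at 1819.7 in wild type, against 1144 in the uninduced pool and 1752 in the SM22-rtTA pool, and Runx3 was at 1227 in wild type, 539 in the uninduced pool and 649 in SM22-rtTA. Macrophage and monocyte genes had 0 calls higher and 0 lower among 25. With 0.767% of the array called lower, 0 of 25 does not set this list apart from the array. Csf1r, the macrophage growth factor receptor, was at 1642 in wild type, against 1922 in the uninduced pool and 1863 in the SM22-rtTA pool. The endotoxin coreceptor Cd14 was at 629 in wild type, 2361 in the uninduced pool and 1134 in SM22-rtTA. Lymphocyte lists also lacked a shared direction. Of 15 B and plasma cell genes 0 were called lower, again near the share of the array, and the transgenic pools themselves differed. Cd79a was at the floor in wild type, against 385 in the uninduced pool and 1792 in the SM22-rtTA pool. Ms4a1 was at the floor in wild type, 361 in the uninduced pool and 1278 in SM22-rtTA. Of 22 T and natural killer cell genes 1 was called higher, the kinase Zap70 (1313 in wild type, against 626 uninduced and 584 in SM22-rtTA). Of 12 platelet genes 1 was called lower, the chemokine Ppbp (378 in wild type, against 1275 uninduced and 1200.4 in SM22-rtTA).

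Genes of resident lung cells were mostly a little lower in wild type, and few passed 2-fold. Alveolar type 1 cells, the thin cells of gas exchange, had 15 of 17 genes below both transgenic pools, 4 by at least 1.5-fold and 0 by 2-fold, with a median log2 ratio of -0.54. Over the array 24.4% of genes lay below both, a share that counts genes at the floor. The water channel Aqp5 was at 2450.3 in wild type, against 4184 in the uninduced pool and 4268 in the SM22-rtTA pool, and Hopx was at 6580.3 in wild type, 9801 in the uninduced pool and 9434 in SM22-rtTA. Ager, the receptor for glycated proteins that marks these cells, was at 5391 in wild type, against 6538 in the uninduced pool and 7006 in the SM22-rtTA pool. Endothelial genes had 29 of 41 below both, with a median of -0.31 and no call at 2-fold. The junction protein Cldn5 was at 3024 in wild type, 5288 in the uninduced pool and 5692 in SM22-rtTA, and Pecam1 was at 1308 in wild type, against 2619 in the uninduced pool and 2539 in the SM22-rtTA pool. Smooth muscle and pericyte genes, the cells in which SM22 drives the transgenes, had 15 of 29 below both and no call, with a median of -0.24. Tagln, which encodes SM22 itself, was at 2222 in wild type, 3633 in the uninduced pool and 2768 in SM22-rtTA, and Acta2 was at 2711 in wild type, against 5233 in the uninduced pool and 3238 in the SM22-rtTA pool, the uninduced pool lying above SM22-rtTA for both. Fibroblast and matrix genes had a median of -0.23 with 21 of 36 below both and 6 above. With the values as deposited, where the median of measured genes was -0.18, these medians were -0.77 for alveolar type 1, -0.48 for endothelial, -0.46 for smooth muscle and -0.45 for fibroblast genes.

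Alveolar type 2 genes were mostly lower too, with a median log2 ratio of -0.35, or -0.57 with the values as deposited. Of 25, wild type was called lower in 4 and higher in 0, where 0.767% of the array was called lower, and 16 lay below both pools and 6 above. The complement component Hc was at 457 in wild type, 1726 in the uninduced pool and 1606 in SM22-rtTA, 3.51-fold lower, and Lpcat1, which remodels surfactant lipid, was at 2336 in wild type, against 4753 in the uninduced pool and 5041 in the SM22-rtTA pool. Surfactant proteins were close to the transgenic pools: Sftpb was at 7296 in wild type, 8648 in the uninduced pool and 8049.6 in SM22-rtTA, and Sftpa1 was at 7849 in wild type, against 10038 in the uninduced pool and 10170.3 in the SM22-rtTA pool. Napsa, the protease that processes surfactant protein and that proximal tubule also makes, was the member furthest above, at 7082 in wild type, 2936 in the uninduced pool and 3549 in SM22-rtTA, and lay within 2-fold of SM22-rtTA. Foxa1 and Foxa2, factors of airway and alveolar epithelium named after their values were seen, were both called lower. Foxa1 was at 424 in wild type, against 1066 in the uninduced pool and 952 in the SM22-rtTA pool, and Foxa2 was at 418 in wild type, 1124 in the uninduced pool and 947 in SM22-rtTA. Of 22 club and airway secretory genes 1 was called higher and 0 lower, and of 9 ciliated genes 0 and 0. Mesothelium, the outer skin of the lung, had 3 of 10 genes called lower and 1 higher, with a median of -0.52. Upk3b was at 344 in wild type, against 1004 in the uninduced pool and 1439 in the SM22-rtTA pool, mesothelin (Msln) was at the floor in wild type, 702 in the uninduced pool and 590.4 in SM22-rtTA, and the keratin Krt19 was at 1102 in wild type, against 2356 in the uninduced pool and 2405 in the SM22-rtTA pool. The carboxypeptidase Cpe, which neuroendocrine and chromaffin cells use in quantity, was the higher member, at 1939 in wild type, 848 in the uninduced pool and 883 in SM22-rtTA. Epithelial claudins were split: Cldn2 (1455 in wild type, against the floor uninduced and 345 in SM22-rtTA) and Cldn10 (2340.2 in wild type, against 749.8 uninduced and 821 in SM22-rtTA) were called higher, and Cldn3 (989 in wild type, against 2302 uninduced and 2102 in SM22-rtTA) and Cldn7 (537 in wild type, against 1145 uninduced and 1074 in SM22-rtTA) lower. The part of the kidney and adrenal transcripts in the lower levels of lung genes was not tested.

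**Figure D4:**
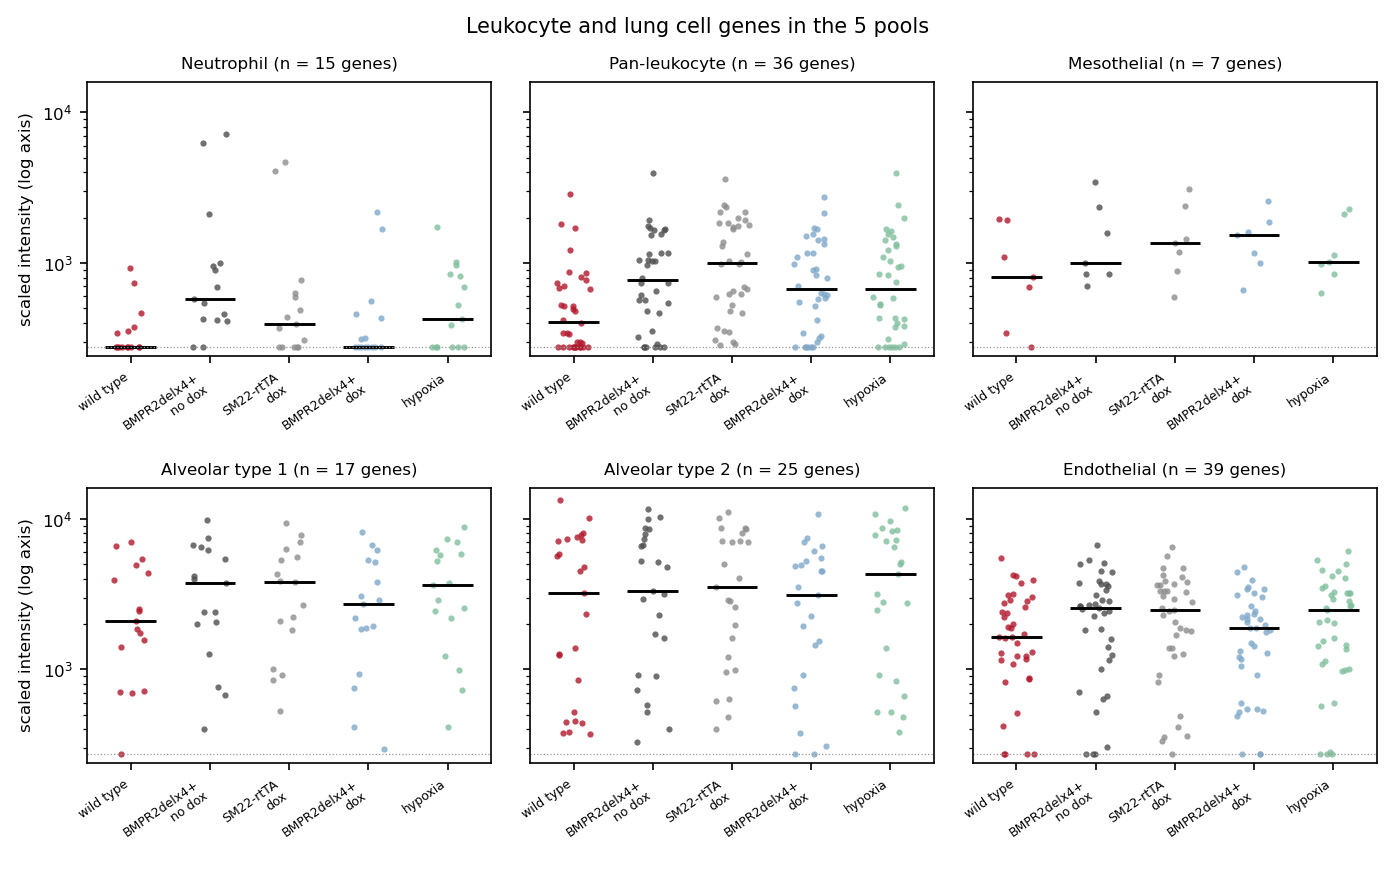
Scaled intensity (log axis) of the measured members of 2 leukocyte and 4 lung cell lists, 1 point per gene, in the 5 pools with wild type at the left, the median as a bar and the floor as a dotted line. Neutrophil points for S100a8 and S100a9 stand at the top of both transgenic pools and are on the floor in wild type. The alveolar type 1 and endothelial medians are lower in wild type by less than 2-fold. The median intensity of the alveolar type 2 panel is close in wild type and both transgenic pools, though 16 of its 25 genes lay below both.

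The BMP and TGF-beta pathway, in which the transgene acts, had 1 call and was a little lower in wild type. Of 41 genes, wild type was called higher in 1 and lower in 0, 21 lay below both and 8 above, with a median of -0.20. Over the array 24.4% lay below both, a share that counts genes at the floor. With the values as deposited the list median was -0.42, where that of measured genes was -0.18, and 24 lay below both and 5 above. Id2, a BMP target, was the member called, at 2282 in wild type, against 893 in the uninduced pool and 829.9 in the SM22-rtTA pool, and at 656 in the induced pool and 1064 in the hypoxic pool. The other targets Id1 and Id3 were level: Id1 was at 2837 in wild type, 2759 in the uninduced pool and 2787 in SM22-rtTA, and Id3 was at 2101 in wild type, against 2226 in the uninduced pool and 2192 in the SM22-rtTA pool. Smad6, an inhibitor that BMP signals induce, was at 1591 in wild type, 2640.3 in the uninduced pool and 2817 in SM22-rtTA. The receptor Acvrl1 was at 1492 in wild type, against 1832 in the uninduced pool and 3246 in the SM22-rtTA pool, and the receptor Bmpr1a was at 635 in wild type, 950.5 in the uninduced pool and 782 in SM22-rtTA. Of 28 Wnt pathway genes 1 was called higher, the antagonist Sfrp1 (798 in wild type, the floor in both transgenic pools), and of 24 genes of vascular tone and natriuresis 1, Nppa. Xist, expressed from the inactive X chromosome of females, was at the floor in wild type, against 689 in the uninduced pool and the floor in the SM22-rtTA pool, and at 1845 in the induced pool and 1403 in the hypoxic pool, and the Y-linked Eif2s3y was at 394 in wild type, 366 in the uninduced pool and 394 in SM22-rtTA, and at 285 in the induced pool and the floor in the hypoxic pool.

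**Figure D5:**
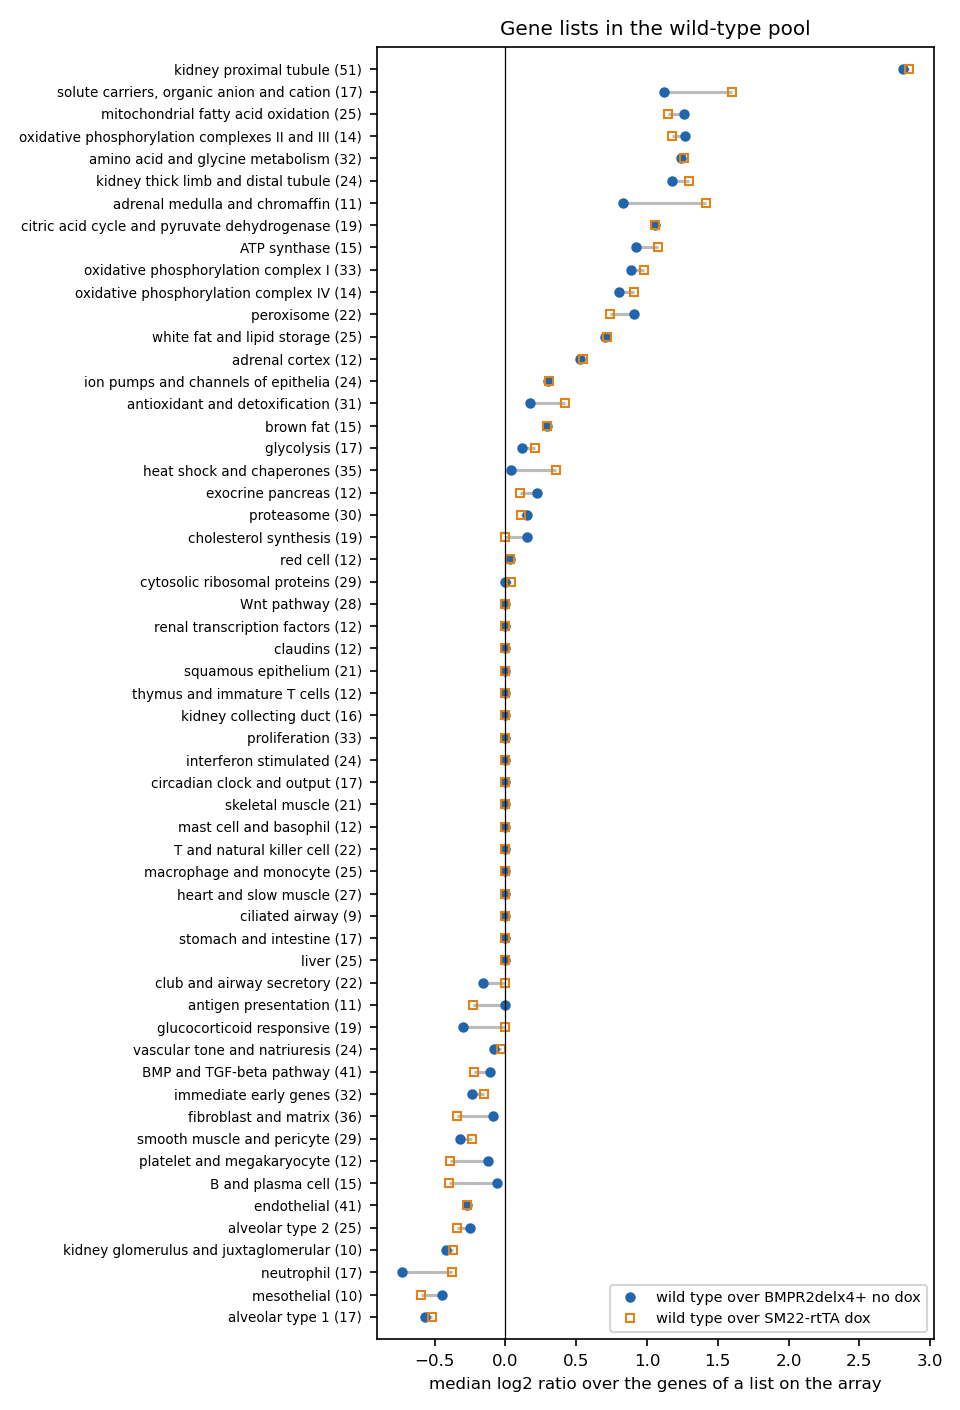
Median log2 ratio of wild type over the uninduced BMPR2delx4+ pool (filled circles) and over the SM22-rtTA pool (open squares) for the gene lists with at least 6 genes on the array that were not written after the values were seen, with the number of genes on the array in brackets. Kidney tubule, mitochondrial and amino acid lists lie to the right of 0 and alveolar type 1, mesothelial, neutrophil and endothelial lists to the left under both pools, and a list with most of its genes at the floor has a median of 0.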

How the data were processed

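RNA of whole lung was measured on 5 oligonucleotide arrays, 1 pool per condition, grouped by the sample titles. Each of 22626 probe sets has a linear intensity in the deposited table, with a lower limit of 50 already present; how the authors summarised, corrected and scaled it is not given in the sources used here. On the log2 scale the arrays were shifted to equal medians over the 9047 probe sets at or above the 50th percentile of every array (shifts of 0.13 for wild type, -0.07 for uninduced BMPR2delx4+, -0.11 for SM22-rtTA, -0.04 for induced BMPR2delx4+ and 0.08 for hypoxia). The floor was the 50th percentile of the pooled scaled values. A probe set stood for its gene where it had the highest mean over the 5 arrays, and names came from the platform annotation updated through a RefSeq table on GRCm38.p6, with 20380 probe sets on 1 gene, 691 on several and 1555 on none.

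The ratio was the wild-type log2 value minus the mean log2 of both transgenic pools. Folds of single genes are over or under the nearer transgenic pool, while the counts at 4-fold and 8-fold use the ratio. With 1 array per pool no test was run, and precision is limited by the number of arrays. List medians were taken over all members on the array, since members measured through wild type alone had to be high there. The members of the comparison and the gene lists were chosen with earlier results of these data known, and 3 lists were written after the values were seen. Named genes were the 15 highest and 15 lowest called genes above the floor in all 3 pools, the 15 brightest at the floor on either side, up to 5 called members of each list or the 3 brightest where none was called, and Bmpr2, Tagln and sex-linked genes; the others named were chosen after their values were seen. Alternatives covered scaling, floor, gene summary, the pool compared with and the fold. Python 3.11.15, numpy 2.4.6 and pandas 2.3.3 were used.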

Additional observations from a re-analysis of the deposited data

Results flagged for a closer look

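Probe sets with no gene or several genes in the annotation took no part in the comparison. Of 2246 such probe sets, 1084 were measured in the normal-pressure pools, and 85 were called higher and 9 lower in wild type by the same rule.

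Proximal tubule genes were also seen in a pool that entered no call. In the hypoxic pool, 9 of the 51 genes were above the floor while at it in all 3 transgenic pools, where 4.87% of all genes on the array were. A further count, of genes above both transgenic normal-pressure pools, gave 15 of the 51, where it gave 25.4% of the array. Its summed intensity for the list was 24819, against 155202 in wild type and a range of 21214 to 22900.0 in the 3 transgenic pools.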

How the results depend on the processing

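With 1 array per pool no replicate could be left out. No paired analysis was possible because each condition has 1 array. The count of genes called higher was 569, and it was 377 with the floor at the 70th percentile, 1211 at 1.5-fold, 263 at 3-fold and 284 among genes above the floor in all 3 pools. The count called lower was 95, and it was 235 with the values as deposited, 187 with the median over all probe sets, 186 and 35 with the floor at the 30th and 70th percentile, 265 against uninduced BMPR2delx4+ alone, 221 against SM22-rtTA alone, 532 at 1.5-fold, 7 at 3-fold and 143 with each probe set by itself. The share called higher was 85.7%, and it was 63.2% with the values as deposited, 70% with the median over all probe sets, 71.3% against uninduced BMPR2delx4+ alone, 69.5% at 1.5-fold and 97.4% at 3-fold. Scaling moved the median of the measured genes by -0.18 as deposited, -0.13 with all probe sets and -0.09 with quantiles. All 95 genes called lower were still called under these 3 scalings, as were 404, 437 and 466 of those called higher. These scalings lowered wild type against the transgenic pools, which favours lower calls. Keeping all 95 under them is no check. Of the 95, 35 were kept with the floor at the 70th percentile and 67 with the mean of the probe sets. With a constant added to each intensity in place of the floor 72 were kept, and 88 when scaled on ribosomal protein genes. All 95 were kept with the floor at the 30th percentile, against either transgenic pool alone and with the probe set brightest in those pools. Of 58 list medians, 4 changed sign under a scaling. With the values as deposited the heat shock median of 0.20 became -0.02, the proteasome median 0.10 became -0.12, the ribosomal 0.03 became -0.19 and the sex-linked 0.03 became -0.08. The heat shock list is the 1 of these among the 31 lists at least 0.2 from 0. The 166 named genes that were called kept their sign under every alternative, while 14 of the 53 that were not called changed sign under at least 1. Scaling on ribosomal protein genes, an alternative chosen after seeing the data, gave 586 higher and 89 lower. Of the genes called, 163 higher and 30 lower ones had another measured probe set, and 5 of 241 and 7 of 44 such probe sets had the opposite sign. Genes with opposite probe sets include Fermt3, Lipg and Vcam1.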
